A study of Mus musculus with 12 samples.

Results

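The genes described here were 10 members of the SOX family of transcription factors, Sox2, Sox4, Sox5, Sox6, Sox7, Sox9, Sox10, Sox11, Sox17 and Sox18, picked by symbol from the 47593 genes in the deposited expression table. Each gene was measured by RNA sequencing in 12 mammary tumors from 9 female mice. Tumors 3 and 4 came from 1 mouse, tumors 10, 11 and 12 came from another, and each of the other 7 mice gave 1 tumor. Every mouse carried MADM RG;GR alleles on a mixed background, and none was treated. In this design, called mosaic analysis with double markers, the Brca1 flox and p53 KO alleles sit on one homolog of chromosome 11, and recombination between homologs by MMTV-Cre, which is driven in mammary epithelium, leaves rare GFP+ cells that lack both tumor suppressors inside a gland of heterozygous cells. RNA was taken from pieces of whole tumor, so the values include the blood vessels, stroma and immune cells of each piece. No normal gland and no other genotype was part of the 12 samples, and the ages at collection are not given in the sources used here. The comparisons below were therefore made between genes, between tumors and between mice.

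SOX proteins bind DNA through an HMG box related to that of Sry, and bend the helix where they bind. They are grouped by the likeness of that box. The E group (Sox8, Sox9 and Sox10) is best known from cartilage and testis for Sox9 and from neural crest, glia and melanocytes for Sox10, and in the mammary gland Sox9 and Sox10 have been tied to stem and progenitor cells. The C group (Sox4 and Sox11) is active in many embryonic progenitors and in tumors, and Sox4 is needed for B cell development. The D group (Sox5 and Sox6) lacks an activation domain of its own and works beside Sox9 in cartilage. The F group (Sox7, Sox17 and Sox18) acts in endothelial cells of blood and lymph vessels. Sox2, of the B group, is a pluripotency and neural progenitor factor.

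The coding sequence at the start of the HMG box is shown for the 10 genes because it is the feature that defines them and because reads from near-identical stretches could be shared between them. The 60 bases were read from the GENCODE transcripts of mouse build GRCm38, 5′ to 3′ on the coding strand, and capitals mark the bases that differ from Sox9:
Sox9: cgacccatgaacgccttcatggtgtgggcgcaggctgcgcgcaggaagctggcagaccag
Sox10: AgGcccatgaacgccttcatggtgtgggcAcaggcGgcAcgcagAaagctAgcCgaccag
Sox4: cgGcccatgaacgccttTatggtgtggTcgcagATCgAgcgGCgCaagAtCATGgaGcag
Sox11: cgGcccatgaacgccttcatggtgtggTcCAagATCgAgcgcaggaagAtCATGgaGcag
Sox5: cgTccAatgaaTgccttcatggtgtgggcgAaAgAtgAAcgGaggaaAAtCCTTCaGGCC
Sox6: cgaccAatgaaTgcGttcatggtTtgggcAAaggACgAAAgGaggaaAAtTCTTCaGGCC
Sox7: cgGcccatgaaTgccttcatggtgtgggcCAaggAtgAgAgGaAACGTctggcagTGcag
Sox17: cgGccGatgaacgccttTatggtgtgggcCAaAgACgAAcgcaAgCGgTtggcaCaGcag
Sox18: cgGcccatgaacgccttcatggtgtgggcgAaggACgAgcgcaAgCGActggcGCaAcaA
Sox2: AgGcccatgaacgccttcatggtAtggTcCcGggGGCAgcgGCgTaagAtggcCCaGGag

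Sox10 differed from Sox9 at 8 of the 60 bases, fewer than any other member, and Sox6 differed most, at 23. Over the aligned coding bases of the box the closest pair among the 10 was Sox4 and Sox11, with 87.8% of bases identical, followed by Sox5 and Sox6 with 81.4% and Sox9 and Sox10 with 81.0%. Sox17 shared 79.7% with both Sox7 and Sox18. The likeness never extended over a whole read: among the 55 pairs formed by the 10 genes and Sox8, 0 shared an exact stretch of 75 bases, the length of the reads, in any transcript. Values of the members therefore did not draw on identical full-length reads. Sox2 lies within the longer noncoding gene Sox2ot on the same strand, and Sox5, Sox6, Sox4 and Sox17 overlap noncoding genes, of which Sox5os3, antisense to Sox5, reached the highest value at 1.12 TPM in tumor 8.

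Tumors 2, 8 and 9 were set apart with the SOX values seen, and they also differed from the rest in other genes. The median of 6 epithelial junction genes, Cdh1 and Epcam among them, was 236 to 357 TPM in the other 9 tumors and 0.122 TPM in tumor 2, 2.05 TPM in tumor 8 and 167 TPM in tumor 9. Epcam itself was 914 TPM in tumor 9, inside the 239 to 1004 TPM of the other 9. TPM is the number of transcripts of a gene per 1000000 transcripts of its sample, corrected for transcript length, so that levels can be set side by side within and between tumors. Tumor 2, labelled mammary gland, had 0 TPM of Epcam and of all 5 basal keratins, while the median of 5 B lymphocyte genes, Cd79a and Pax5 among them, was 71.1 TPM there, 11.7 TPM in tumor 9 and at most 2.08 TPM elsewhere. Tumor 8 had 3049 TPM of the mesenchymal filament gene Vim and 1732 TPM of the stromal gene Dcn, each the highest of the 12. Tumor 9 had a luminal keratin median of 499 TPM, beside 501 to 1732 TPM in the other 9, but its Krt7, at 62.4 TPM, and the basal keratin Krt14, at 11.1 TPM, were below all 9, and it had the highest T lymphocyte median, 14.2 TPM. The labelled tissue was thus not reflected by its defining markers in tumor 2 and only weakly in tumor 8. Levels are given below for these tumors and for the other 9 separately. The test between mice and most of the differences between tumors and of the relations are also given without tumors 2, 8 and 9. The level differences between genes are not. The 12 samples were otherwise alike in detection, with 21415 to 23443 genes above 0, and their depth in reads is not recoverable from TPM.

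Sox10 and Sox4 were the most abundant members. Averaged over the 9 mice, with tumors of the same mouse averaged first, Sox10 stood at 240 ± 201 TPM (SD, n = 9), Sox4 at 83.6 ± 27.9, Sox9 at 33.8 ± 19.9 and Sox18 at 7.23 ± 3.95. The other members lay lower, with Sox5 at 3.68 ± 3.19, Sox11 at 2.21 ± 4.58, Sox7 at 2.03 ± 1.05, Sox17 at 1.62 ± 0.698, Sox6 at 1.46 ± 1.19 and Sox2 at 0.856 ± 2.44. On the log2(TPM + 1) scale, which was used for all tests, the order was Sox4, Sox10, Sox9, Sox18, Sox5, Sox7, Sox17, Sox6, Sox11 and Sox2, with means from 6.30 down to 0.39. Among neighbours in that order, only Sox9 and Sox18 were separated by more than the SD of their difference over mice, 1.72 ± 1.38 (SD, n = 9), with Sox9 higher in 8 of 9 mice. Sox4 and Sox10 were not separated, with a difference of 0.27 ± 3.27, and Sox18 exceeded Sox5 in 8 of 9 mice by 1.07 ± 1.098. Sox10 was the highest of the 10 in 9 tumors, where it made up 50.4% to 77.1% of their summed TPM. Sox4 led in tumors 2 and 8, with 91.1% and 45.5% of the sum, and Sox9 led in tumor 9 with 59.0%.

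**Figure D1:**
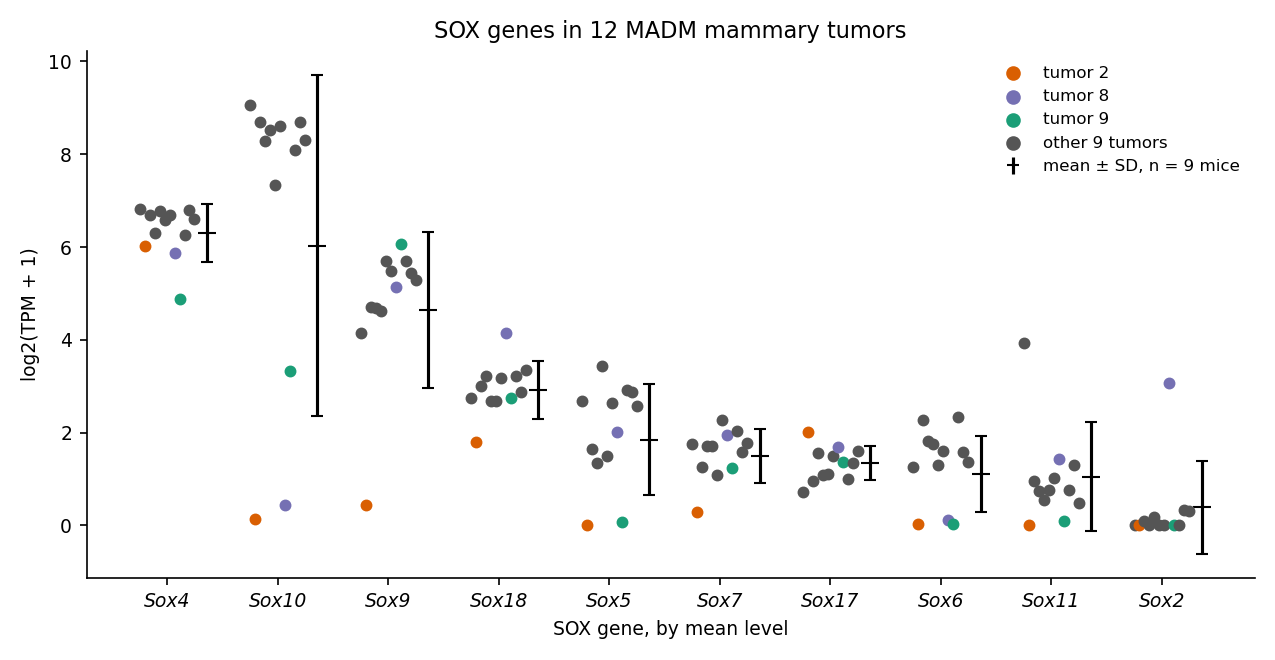
Level of each of the 10 SOX genes in each of the 12 tumors, as log2(TPM + 1). Sox10 is the highest in 9 tumors and close to 0 in tumors 2 and 8, whereas Sox4 stays high in every tumor.

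Sox10, the neural crest and mammary progenitor factor (ENSMUSG00000033006, minus strand of GRCm38 chr15:79154908-79165240), was high in 9 tumors, low in tumor 9 and nearly missing in tumors 2 and 8. In the 9 tumors other than 2, 8 and 9 it ranged from 160.1 TPM in tumor 6 to 536 TPM in tumor 1, with a median of 367 TPM. It was 8.97 TPM in tumor 9, 0.358 TPM in tumor 8 and 0.104 TPM in tumor 2. No tumor lay between 8.97 and 160.1 TPM, but the 3 low tumors were set apart with these values seen. Krt7 and Cdh1 were also lower in these 3 tumors than in all 9, and the share of all genes with such a gap was not computed. The mean level of Sox10 was at percentile 96.7 among the 16779 genes with a mean of at least 1 TPM, and its SD over mice, 3.68 on the log2(TPM + 1) scale, was at percentile 99.9. Of the low tumors, 2 and 8 were also those with the least epithelial RNA, by the junction genes above, and the part of that difference in the Sox10 values was not tested. In tumor 9 the junction genes and luminal keratins were present while Sox10 was low. In bulk tumor RNA, fewer cells expressing a gene and less RNA of it per cell cannot be told apart.

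Sox9, a regulator of cartilage and of mammary stem and progenitor cells (ENSMUSG00000000567, plus strand of chr11:112782224-112787760), was more even. It ranged from 16.6 TPM in tumor 1 to 66.5 TPM in tumor 9 in 11 of the tumors and was 0.349 TPM in tumor 2. The median over all 12 was 36.3 TPM. Tumor 8, which had almost no Sox10, had 34.2 TPM of Sox9, within the range of the other tumors, and tumor 9 had the most Sox9 of all. Tumor 1 had the most Sox10 and the least Sox9 of the 11. The SD of Sox9 over mice was 1.69 on the log2(TPM + 1) scale with the mouse of tumor 2 and 0.64 without it, whereas that of Sox10 was 3.68 and 3.15. Sox9 lies on chromosome 11, the chromosome that carries the recombining alleles, and the values do not separate the alleles.

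The balance within the E group shifted between tumors. The ratio of Sox10 to Sox9 in TPM ran from 3.14 in tumor 6 to 32.3 in tumor 1 among the 9 tumors and was 0.299 in tumor 2, 0.135 in tumor 9 and 0.0105 in tumor 8. Sox8, the E group gene outside the 10, was at 2.22 to 25.5 TPM in the 9 tumors and listed at 0 in tumors 2 and 8, but reached 350 TPM in tumor 9. Sox8 thus made up 82.3% of the summed E group TPM in tumor 9, while Sox10 made up 70.2% to 96.2% in the 9 tumors and Sox9 made up 99.0% in tumor 8. The summed E group level in tumor 9, 425 TPM, lay within the 228 to 557 TPM of the 9 tumors, whereas tumor 8 had 34.6 TPM and tumor 2 had 0.453 TPM. The gene with the high level in tumor 9 was thus a different E group member from the gene with the high level in the other 9. Sox8 was named with its values seen.

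Known targets of these factors were not uniformly present. Of 10 cartilage genes that Sox9 is known to act on, Col9a2, Col9a1 and Col11a1 had the highest means. In the 9 tumors Col9a2 ranged from 13.7 to 162 TPM, Col9a1 from 1.66 to 184 TPM and Col11a1 from 10.1 to 63.4 TPM. Col2a1, the main collagen of cartilage, was 140.5 TPM in tumor 1, the tumor with the lowest Sox9 after tumor 2, and 2.34 to 32.7 TPM in the other 8. In tumor 8, with 34.2 TPM of Sox9, Col2a1, Col9a1 and Col9a2 were all listed at 0 and Col11a1 was 0.647 TPM. In tumor 9, with the most Sox9, Col2a1 was listed at 0, Col9a1 was 0.245 TPM and Col9a2 was 44.3 TPM. Acan, which codes for the main cartilage proteoglycan, was at most 2.09 TPM in any tumor, and Matn1 and Matn3 were at most 0.429 TPM. Tumor 9, with the most Sox9, was thus not the tumor with the most of any of these collagens.

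Among 11 genes that Sox10 is known to act on in neural crest derivatives, the melanin enzymes Dct and Tyr were listed at 0 in all 12 tumors. The receptor gene Erbb3 and the secreted protein gene Mia were expressed in the 9 tumors, at 23.7 to 63.7 TPM and 18.5 to 74.1 TPM. Both were lowest in tumors 2 and 8, at 0.109 and 0.592 TPM for Erbb3 and 0.145 and 0.706 TPM for Mia, and both were highest in tumor 9, at 128 and 209 TPM. In tumor 9 these genes were thus high while Sox10 was low. Other targets went the opposite way in tumor 8, where Pmp22, at 62.4 TPM, and Ednrb, at 9.60 TPM, were the highest of the 12 and Mitf, at 5.47 TPM, was above all 9 tumors. Cnp was lowest of the 12 in tumor 8, at 39.8 TPM, and next lowest in tumor 2, at 48.5 TPM. S100b, at 0.444 TPM in tumor 8, was also below all 9 tumors. The Schwann cell and melanocyte list, 7 genes, had a median of at most 1.33 TPM in every tumor, although Mbp from that list was 121 TPM in tumor 9 against 5.58 to 37.8 TPM in the others.

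Of the 12 mammary stem and progenitor genes listed beside Sox9 and Sox10, the luminal progenitor factor Elf5 was the one most like Sox10. Elf5 was 79.0 to 176 TPM in the 9 tumors, 6.77 TPM in tumor 9, 0.141 TPM in tumor 8 and 0.0352 TPM in tumor 2. Foxc1 followed the same split, at 20.03 to 39.0 TPM in the 9 tumors and 7.20, 7.32 and 0.0464 TPM in tumors 9, 8 and 2. Kit, the luminal progenitor receptor, did not, since tumor 9 had 44.3 TPM, inside the 19.8 to 97.1 TPM of the 9 tumors. Procr, a marker of a mammary stem cell population and of endothelium, was highest in tumor 8, at 65.9 TPM, and Snai2, which works with Sox9 in reprogramming mammary cells, was also highest there, at 7.31 TPM.

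Sox4 (ENSMUSG00000076431, minus strand of chr13:28948919-28953713), a C group factor of progenitors and tumors, was at 28.4 TPM or more in every tumor. Its highest level was 113 TPM, in tumor 1, its median 95.8 TPM, and its lowest 28.4 TPM, in tumor 9. Tumors 2 and 8 had 63.8 and 57.3 TPM, below the 75.4 to 113 TPM of the 9 tumors. It was the only member that remained high in tumor 2, the tumor with high B lymphocyte and almost no epithelial RNA. Sox11 (ENSMUSG00000063632, minus strand of chr12:27334264-27342574), its closest relative in sequence, was 14.3 TPM in tumor 1 and at most 1.68 TPM in the other 11, with a median of 0.691 TPM. It reached a mean of 1 TPM, the filter for the tests, only through tumor 1.

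The D group genes, partners of Sox9 in cartilage, were low but present in the 9 tumors. Sox5 (ENSMUSG00000041540, minus strand of chr6:143828425-144781977) ranged from 1.54 TPM in tumor 4 to 9.77 TPM in tumor 5 there, was 3.04 TPM in tumor 8 and 0.0555 TPM in tumor 9, and was listed at 0 in tumor 2. Sox6 (ENSMUSG00000051910, minus strand of chr7:115470872-116038796) ranged from 1.40 TPM in tumor 1 to 4.08 TPM in tumor 10 and was 0.0260, 0.0789 and 0.0185 TPM in tumors 2, 8 and 9. Sox6 was therefore low in the same 3 tumors as Sox10, as were Krt7, Cdh1 and Elf5, so this split is not particular to SOX genes. Sox5 kept its level in tumor 8.

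Sox2 (ENSMUSG00000074637, plus strand of chr3:34650405-34652461), the pluripotency factor, was listed at 0 in 7 tumors and was 0.0668 to 0.265 TPM in 4 others. Tumor 8 alone had 7.36 TPM. Sox2ot, the noncoding gene around it, did not pass 0.399 TPM in any tumor, a value it had in tumor 9. With a mean under 1 TPM, Sox2 was not among the genes tested.

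The F group, which marks endothelium, was dominated by Sox18, a regulator of lymphatic and blood vessels (ENSMUSG00000046470, minus strand of chr2:181669836-181671640). Sox18 was 5.39 to 9.22 TPM in the 9 tumors with 5.71 TPM in tumor 9, 16.7 TPM in tumor 8 and 2.49 TPM in tumor 2. Sox7 (ENSMUSG00000063060, plus strand of chr14:63943673-63950732) ranged from 1.11 to 3.81 TPM in 11 tumors and was 0.212 TPM in tumor 2. Sox17 (ENSMUSG00000025902, minus strand of chr1:4490931-4497354), which is also an endoderm factor, ranged from 0.648 TPM in tumor 1 to 3.04 TPM in tumor 2. Tumor 2 thus had the least Sox7 and Sox18 and the most Sox17. The 12 endothelial genes, Pecam1, Cdh5 and Kdr among them, had a median of 26.4 TPM in tumor 8, 3.01 TPM in tumor 2 and 6.50 to 14.6 TPM in the other 10, so Sox18 was highest and lowest in the same tumors as this median. Single genes differed, since Pecam1, at 43.1 TPM, and Eng, at 64.9 TPM, were higher in tumor 2 than in any of the 9, and the summed level of the list was lowest in tumor 5, at 129 TPM, with 144 TPM in tumor 2. Their part in the Sox18 values was not tested.

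**Figure D2:**
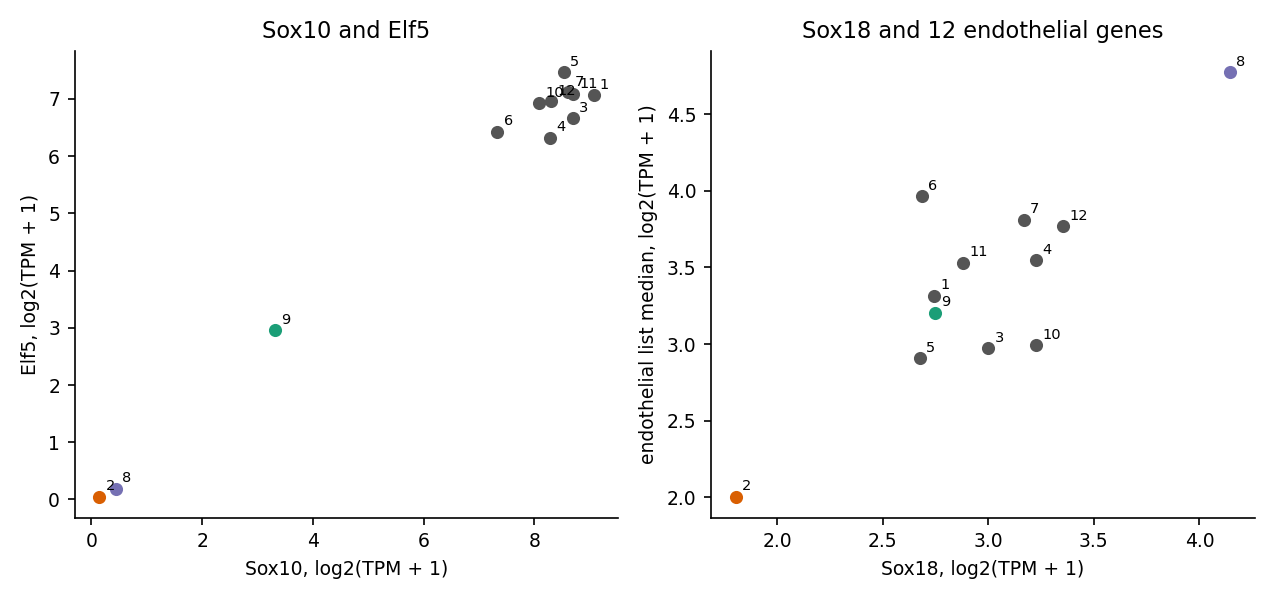
Left, Sox10 against Elf5, and right, Sox18 against the median of 12 endothelial genes, both axes as log2(TPM + 1), 1 point per tumor. Tumors 2, 8 and 9 lie apart from the other 9 at low Sox10 and low Elf5, and tumor 8 is highest for both Sox18 and the endothelial genes.

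Levels of relatives were compared within tumors, since TPM is per length. The mean difference of log2(TPM + 1) over the 9 mice was tested by an exact two-sided permutation of its signs, with p-values adjusted by Benjamini-Hochberg over the 6 pairs compared. The smallest p this design allows is 0.0039. Sox4 exceeded Sox11 by 5.25 ± 1.05 (SD, n = 9), in 9 of 9 mice (exact p = 0.0039, adjusted p = 0.012). Sox18 exceeded Sox7 in 9 of 9 mice, with Sox7 minus Sox18 at -1.41 ± 0.41 (exact p = 0.0039, adjusted p = 0.012). It also exceeded Sox17, with Sox17 minus Sox18 at -1.57 ± 0.74 (exact p = 0.0078, adjusted p = 0.016), and the 1 exception was tumor 2.

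The other 3 pairs did not pass. Sox5 minus Sox6 was 0.75 ± 0.86 and positive in 7 of 9 mice (exact p = 0.039, adjusted p = 0.059). With each of the 12 tumors as a unit the adjusted exact p was 0.030, with the mouse of tumor 2 left out it was 0.047, and with the mouse of tumors 3 and 4 left out it was 0.023. Sox7 minus Sox17 was 0.16 ± 0.80 and positive in 6 of 9 mice (exact p = 0.58, adjusted p = 0.58), and without tumor 2 it was 0.40 with an adjusted exact p of 0.047. Sox9 minus Sox10 was -1.39 ± 3.30 (exact p = 0.23, adjusted p = 0.28), negative in 6 mice and positive in the mice of tumors 2, 8 and 9, so the spread between mice was larger than the mean difference. With 1 mouse left out this difference was -2.15 to -0.95, and with each tumor as a unit it was -1.84 (adjusted exact p = 0.069).

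**Figure D3:**
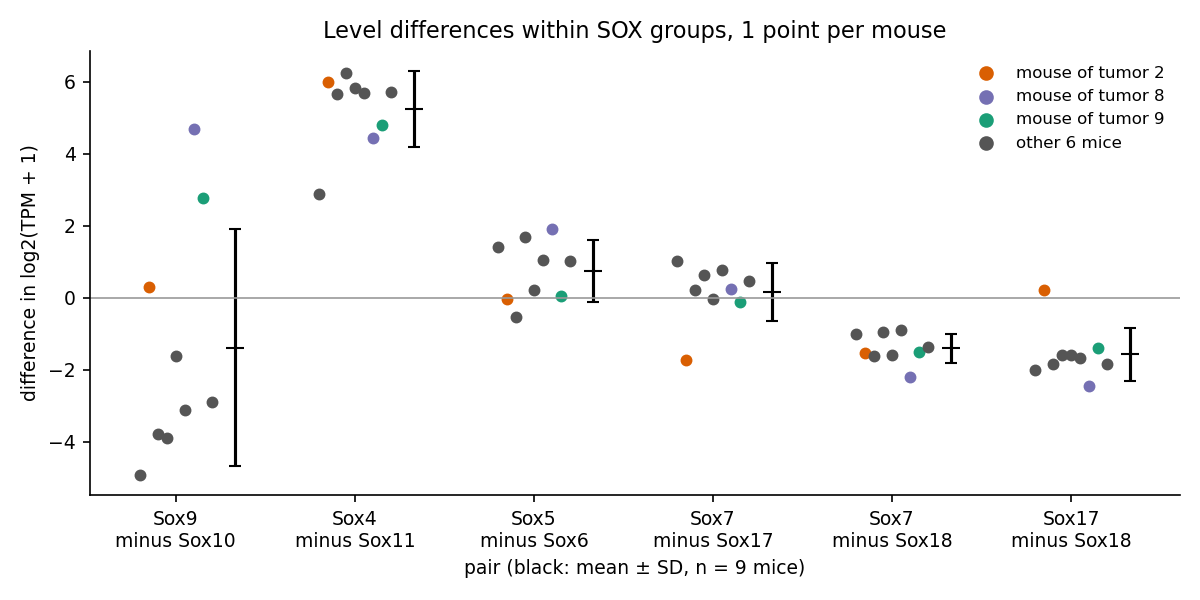
Difference in log2(TPM + 1) between the members of 6 pairs of one SOX subgroup, 1 point per mouse, with mean and SD over 9 mice. All points lie on one side of 0 for Sox4 minus Sox11 and for Sox7 minus Sox18, and Sox9 minus Sox10 spans both sides.

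Whether mice differed was tested with limma's moderated F test on log2(TPM + 1), in which the spread between tumors of the same mouse, with 3 residual degrees of freedom, is the error. Of 16779 genes tested, 7204, or 42.9%, passed an adjusted p of 0.05. Of the 10 members, 9 could be tested and 5 passed, which is 55.6% beside that 42.9% and not a count that sets the members apart. Sox10 had the lowest adjusted p of the members, 0.0014. It had rank 16 among all genes by p, behind Cdh1, Cldn3, Cldn7, Esrp1, Krt18 and Elf5 among others. Of the members, Sox9 followed at 0.0020, Sox5 at 0.0080, Sox11 at 0.020 and Sox4 at 0.045. Sox11 entered the test only through tumor 1, where it was high, and was not tested without that tumor, so its call restates that tumor. Sox18 missed the threshold at 0.056 but passed at 0.045 with no trend in the variance and at 0.046 to 0.048 without tumor 1, 5, 6 or 7. The other members that missed it were Sox6 at 0.065, Sox7 at 0.082 and Sox17 at 0.42. Without tumors 2, 8 and 9, an alternative chosen with the data seen, 2.68% of 16366 genes and 0 of 9 members passed, with limma adjusted p of 0.064 for both Sox9 and Sox11, 0.071 for Sox5 and 0.13 for Sox10, and 4 members at an unadjusted p under 0.05. None of the 5 calls was kept in that smaller set of 6 mice. Over all 18 alternatives the adjusted p ranged from 0.0010 to 0.13 for Sox10, from 0.0014 to 0.064 for Sox9 and from 0.0040 to 0.071 for Sox5. Sox4 also lost its call without any of tumors 2, 3, 4, 9, 11 and 12, with an adjusted p from 0.051 to 0.24, and with no trend (adjusted p = 0.063), and Sox11 lost it without tumor 3 or 4, so that 3 members passed.

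For Sox10 and several other members the differences between tumors of different mice were smaller without tumors 2, 8 and 9, none of which shared a mouse with another tumor. The mean absolute difference of Sox10 in log2(TPM + 1) averaged 0.41 between tumors that shared a mouse (4 pairs) and 3.49 between tumors of different mice (62 pairs), but 0.57 over the 32 of these pairs without tumors 2, 8 and 9. For Sox9 the values were 0.20, 1.44 and 0.71, for Sox5 they were 0.24, 1.33 and 0.91, and for Sox11 they were 0.46, 1.00 and 0.99. Sox17 differed as much within a mouse, 0.46, as between mice, 0.43 and 0.36. Without those tumors Sox4, at 0.38 within and 0.22 between mice, Sox6, at 0.60 and 0.44, and Sox2, at 0.19 and 0.15, also differed no more between mice than within. The median over all genes tested was 0.31 within a mouse, 0.63 between mice and 0.47 without tumors 2, 8 and 9. As 2 mice gave all 4 pairs, these values describe those mice. In 4 of the 10 members, Sox2, Sox4, Sox9 and Sox11, the mouse with the highest or lowest level was separated from the rest by more than Dixon's ratio allows. Of the 9 members among the genes tested, which leaves out Sox2, these were 3, beside 18.5% of the genes tested, and 1 of the 3, Sox11, was among the genes tested only through the mouse that stood apart. The mouse was that of tumor 8 for Sox2, tumor 9 for Sox4, tumor 2 for Sox9 and tumor 1 for Sox11, and these mice stood apart in 1.37%, 5.21%, 9.89% and 0.238% of the genes tested.

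**Figure D4:**
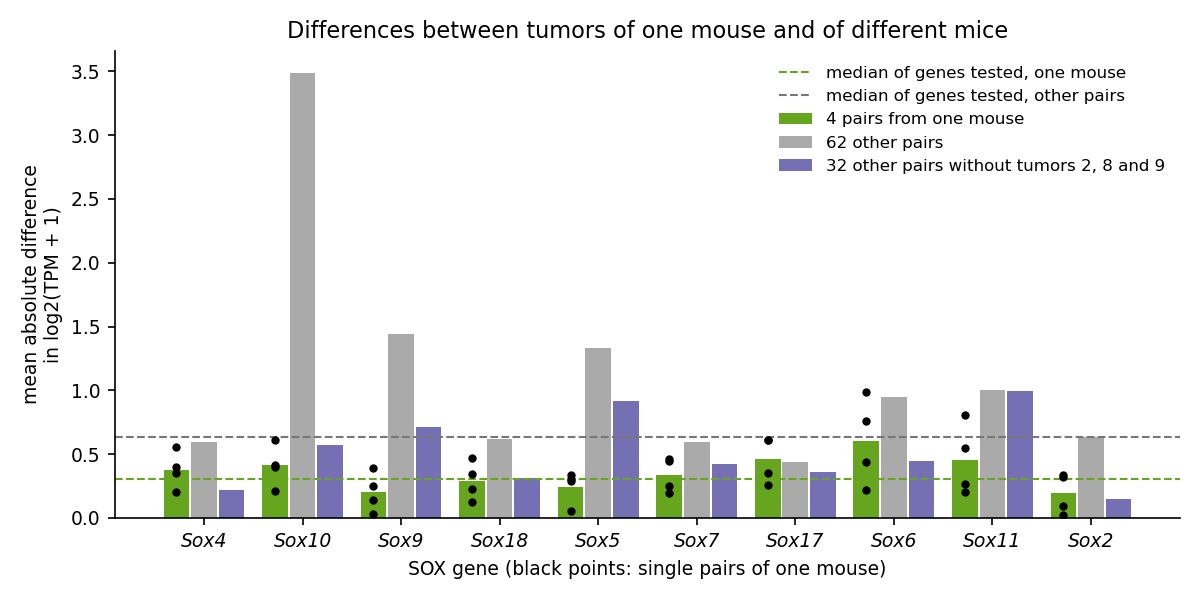
Mean absolute difference in log2(TPM + 1) between tumors of the same mouse (4 pairs) and of different mice, with all 12 tumors (62 pairs) and without tumors 2, 8 and 9 (32 pairs), for each member. Bars are means, points are single pairs of one mouse, and dashed lines are medians of the genes tested. Sox10 falls from 3.49 to 0.57 between mice when those tumors are left out.

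Relations across mice were computed for 10 pairs of measures over the 8 mice other than that of tumor 2, each with an exact permutation p adjusted over the 10. None passed an adjusted p of 0.05, and 2 had an unadjusted p under 0.05 by Pearson's r and 0 by Spearman's rho. The lowest p was that of Sox10 with the luminal keratins, with r = 0.85 (exact p = 0.0084, adjusted p = 0.084) and rho = 0.57 (exact p = 0.15), but r fell to 0.55 without tumors 8 and 9, the mice low in Sox10. It was 0.48 without tumor 8 alone and 0.98 without tumor 9 alone, so it rested on tumor 8. Sox18 with the endothelial median had r = 0.82 (exact p = 0.028, adjusted p = 0.14) and rho = 0.62 (exact p = 0.11), but r fell to 0.070 without tumors 8 and 5, the mice farthest from the median of Sox18. It was 0.31 without tumor 8 alone and 0.80 without tumor 5 alone, so it rested on tumor 8. With all 9 mice (adjusted exact p = 0.031) or without tumor 6 (adjusted exact p = 0.0040) it passed, and without tumor 8 it did not (adjusted exact p = 0.53). Sox17 with the endothelial median had r = 0.65 (exact p = 0.090, adjusted p = 0.23) and rho = 0.55 (exact p = 0.17), with r = 0.30 without tumors 1 and 8. Sox7 had r = 0.28 (exact p = 0.51, adjusted p = 0.57) and rho = 0.33 (exact p = 0.43), with r = 0.56 without tumors 6 and 7 and 0.041 without tumor 8. Over the 8 mice none of the 3 F group genes passed with the endothelial list after adjustment. Sox4 with Sox11 had r = 0.42 (exact p = 0.19, adjusted p = 0.32) and rho = 0.33 (exact p = 0.43), with r = 0.61 without tumors 8 and 9 and 0.20 without tumor 9 alone. Sox9 with the luminal keratins had r = -0.17 (exact p = 0.74, adjusted p = 0.74) and rho = -0.57 (exact p = 0.15), with r = -0.0032 without tumors 1 and 9. Sox9 with the basal keratins had r = -0.28 (exact p = 0.49, adjusted p = 0.57) and rho = -0.17 (exact p = 0.70), with r = 0.31 without the same tumors.

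For Sox10 the mice of tumors 8 and 9 lay apart from the other 6, and the same held for Sox6, so their relations were also read within those 6 alone. Over the 8 mice Sox9 with Sox10 had r = -0.40 (exact p = 0.32, adjusted p = 0.46) and rho = -0.57 (exact p = 0.15), with r = -0.033 without tumors 1 and 9. Sox10 with the basal keratins had r = 0.68 (exact p = 0.064, adjusted p = 0.21) and rho = 0.52 (exact p = 0.20), with r = -0.035 without tumors 8 and 9. Sox5 with Sox6 had r = 0.59 (exact p = 0.13, adjusted p = 0.26) and rho = 0.36 (exact p = 0.39), with r = 0.046 without tumors 5 and 9. None of the 3 passed over the 8 mice. Within the 6 mice Sox9 with Sox10 had r = -0.74 (exact p = 0.068, adjusted p = 0.34) and rho = -0.66 (exact p = 0.17), and r was -0.12 without tumors 1 and 6. Sox10 with the luminal keratins had r = 0.55 (exact p = 0.24) and rho = 0.26 (exact p = 0.66), and r was -0.80 without tumors 1 and 6. Neither relation kept its value with both of these tumors left out. Sox10 with the basal keratins had r = -0.035 (exact p = 0.96), and Sox5 with Sox6 had r = -0.014 (exact p = 0.95). Sox9 with the luminal keratins in these 6 mice had r = -0.79 (exact p = 0.043, adjusted p = 0.34) and rho = -0.77 (exact p = 0.10). None of these passed after adjustment.

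The genes most like each member were picked by Pearson's r of log2(TPM + 1) over the 8 mice, among 12755 or 12756 genes with a mean of at least 5 TPM, and are given as a description with no p. For Sox10 they were Elf5, Atp6v1c2 and Mfsd2a, each with r = 0.99, and 160 genes had r over 0.9. Within the 6 mice with high Sox10 the r of these genes was 0.61, 0.71 and 0.60, lower than with the 2 low mice included. For Sox9 they were Pex3 and Usp15, with r = 0.96, and the immunoglobulin gene Igha, with r = 0.94, and over all 9 mice r was 0.43, -0.098 and 0.60. For Sox4 they were Spsb4, Ak3l2-ps and Pkp1, a desmosome gene, each with r = 0.99, and 315 genes had r over 0.9, but within the 6 mice r was 0.70, 0.67 and 0.49.

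Sox5 was matched best by the guidance gene Ntn1, with r = 0.98 over the 8 mice, 0.98 over all 9 and 0.96 within the 6, then by Sec14l1 and Pced1a. Sox11 was matched best by the small heat shock gene Cryab, with r = 0.97, which like Sox11 was highest in tumor 1, at 272 TPM, then by Gm16754 and Pcdhb17. The 3 genes closest to Sox18 were Xxylt1, Arpp19 and Emilin1, an extracellular matrix gene of vessels that was highest in tumor 8 at 86.4 TPM, all with r = 0.97. Those for Sox6 were Sbk1, Btbd3 and Slc25a27, those for Sox7 were Edem3, Clcc1 and Lnpep, and those for Sox17 were Nfam1, Dnase1l1 and Pdzd11, with r between 0.95 and 0.99. Some of these did not hold with the mouse of tumor 2, since over all 9 mice r was 0.56 and 0.43 for Xxylt1 and Arpp19 with Sox18, 0.25 for Pced1a with Sox5, 0.21 for Sbk1 with Sox6, 0.49 and 0.38 for Clcc1 and Lnpep with Sox7, and -0.40 and 0.080 for Nfam1 and Dnase1l1 with Sox17.

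Of the 10 other SOX genes listed, Sry, Sox1 and Sox3 were listed at 0 in all 12 tumors and Sox30 did not pass 0.193 TPM. Sox13, of the D group, was the most widely expressed, from 1.13 TPM in tumor 2 to 92.2 and 73.1 TPM in tumors 3 and 4 of 1 mouse. Sox12, of the C group, was highest in the same 2 tumors, at 27.1 and 21.4 TPM. Sox15, Sox21 and Sox14 peaked at 14.3 TPM in tumor 9, 5.95 TPM in tumor 1 and 5.23 TPM in tumor 11. By limma's F test, 4 of the 6 genes tested, Sox8, Sox13, Sox15 and Sox21, differed between mice, beside 42.9% of all genes tested. The counts in the other lists were 8 of 12 mammary stem and progenitor genes, 5 of 7 cartilage targets, 6 of 8 neural crest targets and 6 of 12 endothelial genes. They were also 6 of 6 epithelial junction genes, 4 of 4 luminal keratins, 3 of 5 basal keratins, 4 of 8 mesenchymal genes and 5 of 6 fibroblast genes. B and T lymphocyte genes had 5 of 5 and 4 of 5, Schwann and melanocyte genes 3 of 4 and chondrocyte genes 1 of 3. The 5 cartilage targets include Hapln1, which passed the filter only through tumor 2, so its call restates that tumor.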

How the data were processed

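Polyadenylated RNA from 12 tumors was sequenced with a stranded kit. The authors trimmed reads, aligned them with HISAT, quantified transcripts with StringTie 2.1.6 (per the submitters' notes, build GRCm38) and deposited TPM per gene. TPM keeps no read number, so the depth is unknown. All 12 columns were matched to samples by the labels, with 0 unmapped. Values were taken as log2(TPM + 1) and filtered at a mean TPM of 1. Differences between mice were tested with limma 3.58.1 in R 4.3.3 (moderated F test with trend, Benjamini-Hochberg, threshold 0.05). Pairs and relations were tested by exact permutation in numpy 2.4.6, with tumors of a mouse averaged first. Relations with each tumor as a unit used 100000 random permutations instead. In limma the error was the spread between tumors of the same mouse, moderated over all genes. Only the mice with more than 1 tumor give that spread. For the 7 mice with 1 tumor, mouse and tumor cannot be told apart. The permutation p-values measure how often other signs or pairings of the mouse values give as large a result.

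Named genes were the 10 members, the other SOX genes, the 3 genes most like each member, and listed genes. The lists were mammary stem and progenitor genes, Sox9 cartilage and Sox10 neural crest targets, and endothelial, luminal and basal keratin, epithelial junction, mesenchymal, B and T lymphocyte, fibroblast, Schwann and melanocyte, and chondrocyte markers. Members and lists were chosen with earlier results of these data known. Some listed genes are not reported here and were left out of the lists. limma was tested on simulated data, where it recovered 38% of genes at a between-mouse SD of 1 and 89% at 2, on the log2 scale. Far fewer genes differed there than the 42.9% called in the tumors, so these rates need not hold for the tumors. Coordinates and sequences came from GENCODE vM21. Alternatives were another pseudocount, other filters, no trend, each tumor as a unit, list means, all 9 mice and leaving out tumors.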

Additional observations from a re-analysis of the deposited data

Results flagged for a closer look

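In 4 of the 10 members (3 of the 9 among the genes tested) 1 mouse stood apart: its gap to the nearest mouse, divided by the whole range of log2(TPM + 1), was above Dixon's critical value. Sox2 was 3.06 in tumor 8, where the nearest mouse had 0.22. Sox4 was 4.88 in tumor 9, below the nearest at 5.86. Sox9 was 0.43 in tumor 2, below the nearest at 4.14. Sox11 was 3.94 in tumor 1, above the nearest at 1.42, and it was among the genes tested only through that tumor, so its place in the 3 restates the filter. Chance marks about 1 in 20 groups, but 18.5% of the 16779 genes tested were marked here, 9.89% by tumor 2, 5.21% by tumor 9, 1.37% by tumor 8 and 0.238% by tumor 1. Sox10 was not marked.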

How the results depend on the processing

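No paired analysis was possible because the series has 1 group, so no replicate number pairs samples across groups. The number of genes that differed between mice was 7204, ranged from 2061 to 10447 with 1 tumor left out (2061 without tumor 3, 2170 without tumor 4, 4017 without tumor 11, 4184 without tumor 2) and was 438 without tumors 2, 8 and 9. The number of members was 5, ranged from 3 to 6 with 1 tumor left out and was 0 without tumors 2, 8 and 9. Sox5 minus Sox6 was 0.69 with each tumor as a unit, past the threshold, and 0.60 to 0.91 with 1 mouse left out, and Sox7 minus Sox17 was 0.057 to 0.40.

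With all 9 mice, r turned from -0.40 to 0.45 for Sox9 with Sox10, from -0.17 to 0.71 for Sox9 with the luminal keratins, from -0.28 to 0.40 for Sox9 with the basal keratins and from 0.65 to -0.12 for Sox17 with the endothelial genes, and it passed the threshold at 0.90 for Sox18 with the endothelial genes and 0.89 for Sox10 with the luminal keratins. The latter passed at 0.86 with each tumor as a unit and 0.89 with list means. Without tumors 2, 8 and 9, r turned from 0.59 to -0.014 for Sox5 with Sox6, from 0.28 to -0.064 for Sox7 with the endothelial genes and from 0.68 to -0.035 for Sox10 with the basal keratins. With 1 mouse left out, r ranged from -0.81 to 0.070 for Sox9 with the luminal keratins (0.070 without tumor 1), 0.31 to 0.96 for Sox18 with the endothelial genes (0.96 without tumor 6, past the threshold) and 0.48 to 0.98 for Sox10 with the luminal keratins (0.87 without tumor 7, past the threshold). The cause of these changes was not tested.

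With a pseudocount of 0.1, Sox6 (adjusted p = 0.018) and Sox7 (adjusted p = 0.049) also passed. With no trend, Sox18 passed (adjusted p = 0.045) and Sox4 did not (adjusted p = 0.063). With a filter of 0.1 TPM, Sox2 entered through tumor 8 alone, so its test restates that tumor. With no filter it was tested without need of tumor 8, and it was 7.36 TPM there and at most 0.265 TPM elsewhere. In both settings Sox2 passed and Sox4 did not.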

Other observations

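Lgr5, a stem cell receptor gene from the mammary progenitor list, was 24.9 TPM in tumor 2 and at most 2.54 TPM in the other 11. Hapln1, a cartilage link protein gene from the Sox9 target list, was 102 TPM in tumor 2, where Sox9 was 0.349 TPM, and at most 0.288 TPM elsewhere.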
